A study of Danio rerio with 6 samples.

Results

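Connexins and pannexins are the channel proteins through which neighbouring cells, or a cell and its surroundings, exchange ions and small molecules. The genes described here are the 37 of 32520 genes in the table whose names begin with cx and a digit, with gja, gjb, gjc, gjd or gje and a digit, or with panx, in upper or lower case, chemokine receptor names beginning with cx3cr left out. They comprise 33 connexins (17 alpha, 8 beta, 3 gamma, 4 delta and 1 epsilon) and 4 pannexins. They were measured by bulk RNA sequencing of cells with mpeg1-driven GFP, sorted out of skin from untreated zebrafish at 3 months of age. The study asked whether the skin cells that keep mpeg1 in csf1r mutants are macrophages or metaphocytes, mpeg1+ skin cells that do not come from blood.

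There were 3 groups of 2 libraries. The csf1rDM GFP+DsRed- cells (replicates 2 and 3) came from fish homozygous for csf1ra j4e1 and csf1rb sa1503, which lack both receptors for colony-stimulating factor 1. The control GFP+DsRed+ cells (replicates 1 and 3) and control GFP+DsRed- cells (replicates 1 and 2) came from fish without these alleles. Fish of all groups carried mpeg1-EGFP, kdrl:Cre and act2b:loxP-STOP-loxP-DsRedexpress. In this design Cre made in endothelium, including blood-forming endothelium, turns DsRed on for good in the progeny, so DsRed marks blood-derived cells and would miss macrophages born outside that endothelium. The labels name the DsRed+ libraries by the colour switch. That the others were sorted as DsRed- is stated in the methods of the study. Values below are given in the replicate order of this paragraph.

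Libraries held from 4024255 to 14816042 estimated reads, the lower 2 of them being the csf1rDM libraries (5072642 and 4024255 reads). Correlations of log2 values over all tested genes were 0.958 to 0.978 within groups and 0.81 to 0.939 between groups. The mutated gene csf1ra took 1.40 and 2.25 CPM (a gene's value over its library's sum, scaled to 1000000) in csf1rDM GFP+DsRed- cells, 1081 and 1124 CPM in control GFP+DsRed+ cells, and 102 and 86.9 CPM in control GFP+DsRed- cells. The pan-leukocyte gene ptprc took 15.0 and 10.7 CPM in csf1rDM GFP+DsRed- cells, 571 and 785 CPM in control GFP+DsRed+ cells, and 20.2 and 13.2 CPM in control GFP+DsRed- cells, so the DsRed label and this marker separate the libraries alike. Keratinocyte and fibroblast markers had reads in every library. Pigment cell markers were partly at 0 in the csf1rDM libraries, among them 4 and 3 of the 10 xanthophore markers. Transcripts of these cell types are set beside the results they move with.

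A connexin spans the membrane and assembles with its like into a hexameric half-channel. Half-channels of adjoining cells dock to form the gap junction, or open singly to the outside. Fish have more connexin genes than mammals, and many carry names from the predicted mass of the protein. Pannexins have a similar fold, rarely dock between cells, and are best known for releasing ATP, which purinergic receptors on leukocytes read. In zebrafish skin and fins, connexins are known for stripe patterning by pigment cells, where gja5b (mutated in leopard fish) and cx39.4 (mutated in luchs fish) act in melanophores and xanthophores, and for fin bone growth, where cx43 (mutated in short fin fish) sets segment length.

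Of the 37 genes, 21 (17 connexins and 4 pannexins) reached 1 CPM in at least 2 libraries and were tested, and 19 had reads in every library. In 1 of the 21, only 1 group had a library at or above 1 CPM. The other 16 genes stayed at 1.60 CPM or less and at 15 reads or fewer in any library. Their names are cx31.7, cx28.9, GJD4, gja3, cx27.5, cx52.6, cx47.1, gja5a, cx34.5, cx32.3, gjd1a, cx39.9, cx52.7, cx23, gja8b and gjd2b. Among them are gja3 and gja8b, known as lens connexins, and gjd2b, a neuronal connexin of electrical synapses. Both gja8b and gjd2b had 0 reads in all 6 libraries, a level that allows up to 0.591 and 0.745 CPM for csf1rDM GFP+DsRed-, 0.298 and 0.202 CPM for control GFP+DsRed+, and 0.264 and 0.287 CPM for control GFP+DsRed- (3 reads, counting error only).

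**Figure D1:**
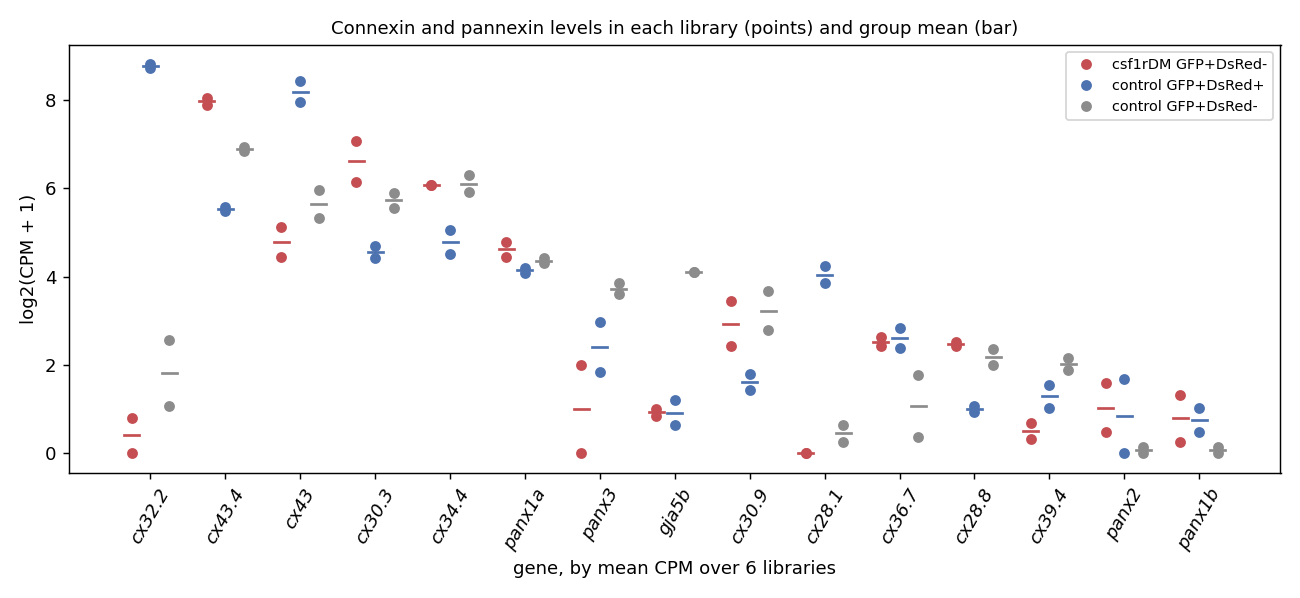
Level of 15 connexins and pannexins, as log2(CPM + 1) on the vertical axis, with a point for each library and a bar at the mean of each group. The blood-derived control GFP+DsRed+ libraries lie far above the rest for cx32.2, cx43 and cx28.1 and below them for cx43.4 and cx34.4, and gja5b is high in control GFP+DsRed- libraries alone.

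Connexin reads were split among the genes in different proportions in the blood-derived and the unmarked libraries. Summed over the 33 connexins, the level was 732 and 685 CPM in csf1rDM GFP+DsRed- cells, 915 and 986 CPM in control GFP+DsRed+ cells, and 524 and 573 CPM in control GFP+DsRed- cells. The 3 genes cx32.2, cx43 and cx28.1 took 2.83% and 5.08% of these reads in csf1rDM GFP+DsRed- cells, 75.5% and 82.3% in control GFP+DsRed+ cells, and 12.7% and 7.11% in control GFP+DsRed- cells. Beta connexins, the class that includes the epidermal connexins of mammals, took 56.5% and 51.0% in csf1rDM GFP+DsRed- cells, 16.1% and 10.8% in control GFP+DsRed+ cells, and 54.2% and 60.4% in control GFP+DsRed- cells. The gamma class took 38.7% and 41.2%, 7.0% and 5.16%, and 27% and 28.3% in the same order of groups. These shares are of reads, which longer transcripts collect more of, and were chosen after the values were seen, so they describe the libraries and carry no test.

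**Figure D2:**
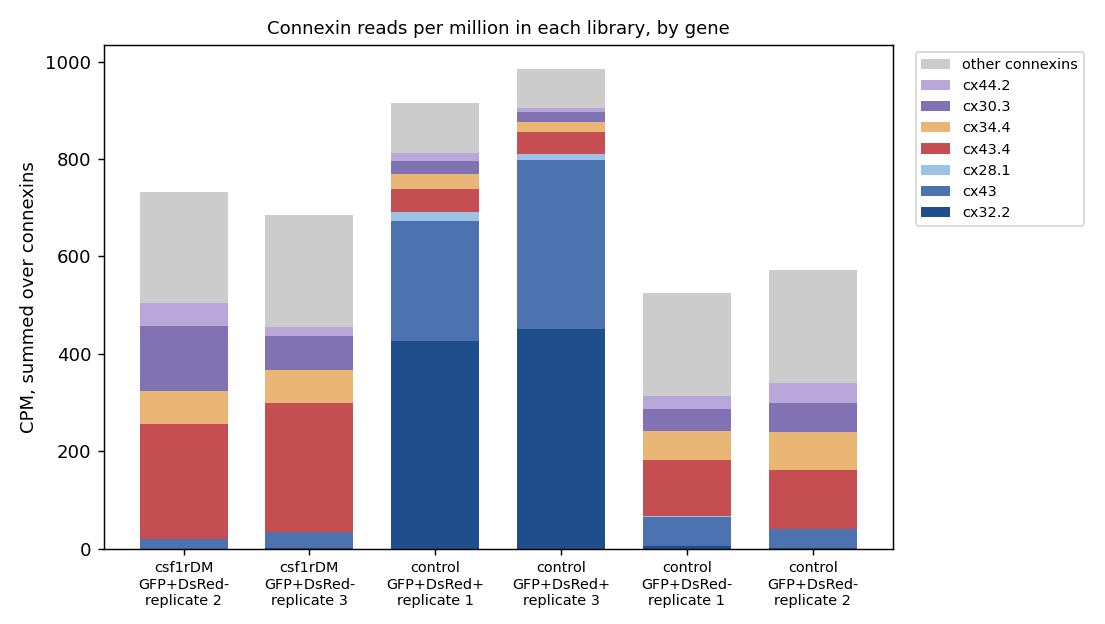
Connexin level in each library, as CPM summed over 33 connexin genes on the vertical axis, with each library as a bar split by gene. The control GFP+DsRed+ bars (915 and 986 CPM) are mostly cx32.2 and cx43, while in the csf1rDM GFP+DsRed- bars (732 and 685 CPM) and the control GFP+DsRed- bars (524 and 573 CPM) both take a small part and cx43.4, cx34.4 and cx30.3 a larger one.

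The first comparison asked which of these genes differ between blood-derived and unmarked mpeg1+ cells of control skin. In control GFP+DsRed+ cells against control GFP+DsRed- cells, 4 of the 21 tested genes rose and 6 fell at an adjusted p under 0.05 (limma with Benjamini-Hochberg adjustment over 20382 genes). Across all genes tested, 25.4% passed in this comparison, 14.6% higher and 10.8% lower. Beyond a log2 fold change of 2, 3 of the 21 rose and 1 fell, against 4.98% and 1.04% of all genes (6.02% together). Without TMM scaling, 42.1% of the calls over all genes were higher in control GFP+DsRed+ cells in place of 57.6%. The libraries of the groups did not overlap for 17 of the 21 genes, against 71.7% of all genes. The median log2 fold change was -0.59 over the 21 genes and -0.03 over all genes. Fold changes given as log2 are differences of log2(CPM + 1) after TMM scaling, which understate the change of genes near 1 CPM, and folds are ratios of mean CPM.

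The gene with the largest fold change of the 21 in this comparison was cx32.2 (gja13.2 in RefSeq), a fish alpha connexin. It took 0 and 0.75 CPM in csf1rDM GFP+DsRed- cells, 427 and 451 CPM in control GFP+DsRed+ cells, and 4.95 and 1.1 CPM in control GFP+DsRed- cells. The blood-derived libraries stood apart from the other 4 with no overlap. cx32.2 was 145-fold higher in the blood-derived than in the unmarked control cells, at a log2 fold change of 7.14 ± 0.48 SE (adjusted p = 0.000138). Its reads numbered 0 and 3 in the csf1rDM libraries, 4297 and 6681 in those of control GFP+DsRed+ cells, and 56 and 11 in the control GFP+DsRed- libraries.

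cx43 (gja1b in RefSeq) is the zebrafish counterpart of GJA1, the most widely expressed connexin of vertebrates. It had 20.7 and 34.0 CPM in csf1rDM GFP+DsRed- cells, 246 and 347 CPM in control GFP+DsRed+ cells, and 61.1 and 39.43 CPM in control GFP+DsRed- cells. Unlike cx32.2, it was well above detection in every library. Its mean level was 297 ± 71.2 CPM in control GFP+DsRed+ cells, against 50.2 ± 15.3 CPM in control GFP+DsRed- cells (SD, n = 2 each), which is 5.91-fold higher (log2 fold change 2.76 ± 0.29 SE, adjusted p = 0.000836). The other copy of GJA1, cx40.8 (gja1a), had 1.20 and 0.75 CPM in csf1rDM GFP+DsRed- cells, 1.0 and 0.650 CPM in control GFP+DsRed+ cells, and 2.95 and 1.55 CPM in control GFP+DsRed- cells, with an adjusted p of 0.154.

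cx28.1 (gja12.2) followed at a lower level, with 0 and 0 CPM in csf1rDM GFP+DsRed- cells, 17.8 and 13.4 CPM in control GFP+DsRed+ cells, and 0.55 and 0.20 CPM in control GFP+DsRed- cells. It was 41.6-fold higher in the blood-derived than in the unmarked control cells, at a log2 fold change of 3.72 ± 0.28 SE (adjusted p = 0.000209). It is the tested gene for which only 1 group, control GFP+DsRed+, met the filter, so it was tested only because that group was high. It counts among the genes called in both comparisons with that group. The fourth gene that rose, cx36.7 (gjd6), a delta connexin known from heart formation in zebrafish, had 4.35 and 5.25 CPM in csf1rDM GFP+DsRed- cells, 4.20 and 6.15 CPM in control GFP+DsRed+ cells, and 2.40 and 0.30 CPM in control GFP+DsRed- cells. Its adjusted p was 0.0308 (log2 fold change 1.68 ± 0.44 SE), and without control GFP+DsRed+ replicate 1 or 3, or without control GFP+DsRed- replicate 2, the adjusted p no longer passed, reaching 0.17.

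In the GRCz12tu RefSeq annotation, which is not the GRCz11 build of the counts and is used here for gene order alone, cx43, cx32.2 and cx28.1 follow each other with no protein-coding gene between them. After tbc1d32 come cx28.9, cx32.3 and cx34.5, 3 further alpha connexins. These last 3 were under the filter. cx28.9 had 0 and 0.25 CPM in csf1rDM GFP+DsRed- cells, 0.50 and 1.05 CPM in control GFP+DsRed+ cells, and 0.45 and 1.0 CPM in control GFP+DsRed- cells. cx32.3 and cx34.5 had reads in the control GFP+DsRed+ libraries only, 3 and 1 reads for cx32.3 and 2 and 4 reads for cx34.5, which is too few to compare. tbc1d32 itself, no connexin, took 5.75 and 4.75 CPM in csf1rDM GFP+DsRed- cells, 0.90 and 1.25 CPM in control GFP+DsRed+ cells, and 1.95 and 1.65 CPM in control GFP+DsRed- cells. It did not pass between the control groups (adjusted p = 0.434) and was higher in csf1rDM GFP+DsRed- cells against control GFP+DsRed- cells (adjusted p = 0.0388) and against control GFP+DsRed+ cells (adjusted p = 0.00438). Whether reads of near-identical stretches of these neighbours were shared or dropped in counting was not tested, since no sequences were used here.

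**Figure D3:**
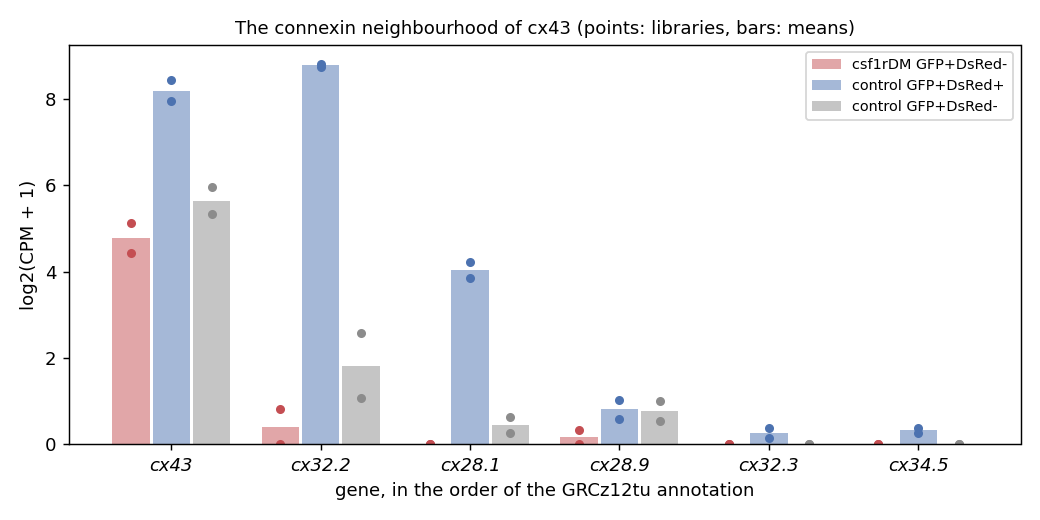
Level of 6 neighbouring alpha connexins, in their order in the GRCz12tu annotation, as log2(CPM + 1) on the vertical axis, with points for libraries and bars for group means. cx43, cx32.2 and cx28.1 are highest in control GFP+DsRed+ libraries, and cx28.9, cx32.3 and cx34.5 lie near 0 in all 3 groups.

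The 6 genes that fell in control GFP+DsRed+ cells against control GFP+DsRed- cells included gja5b, cx43.4 and the beta connexins cx34.4, cx30.9 and cx28.8. cx43.4 (gjc4b), a gamma connexin needed in zebrafish for left-right asymmetry, had 236 and 265 CPM in csf1rDM GFP+DsRed- cells, 47.2 and 43.7 CPM in control GFP+DsRed+ cells, and 115 and 121 CPM in control GFP+DsRed- cells. The 3 groups did not overlap, and both unmarked groups were above the blood-derived one. It was 2.60-fold lower in the blood-derived than in the unmarked control cells, at a log2 fold change of -1.15 ± 0.16 SE (adjusted p = 0.0024). Its relative cx44.2 (gjc4a.1) had 46.7 and 17.1 CPM in csf1rDM GFP+DsRed- cells, 16.6 and 6.85 CPM in control GFP+DsRed+ cells, and 25.6 and 40.9 CPM in control GFP+DsRed- cells. Its replicates lay far apart in every group, and its adjusted p was 0.139.

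cx34.4 (gjb10), a beta connexin, had 66.2 and 66.8 CPM in csf1rDM GFP+DsRed- cells, 32.29 and 21.7 CPM in control GFP+DsRed+ cells, and 59.3 and 78.1 CPM in control GFP+DsRed- cells. The blood-derived libraries were lowest and the unmarked groups of the 2 genotypes overlapped. In control GFP+DsRed+ against control GFP+DsRed- cells, cx34.4 was 2.55-fold lower (log2 fold change -1.12 ± 0.25 SE, adjusted p = 0.0189).

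Other beta connexins had the same direction. cx30.9 (gjb9b) had 4.35 and 9.95 CPM in csf1rDM GFP+DsRed- cells, 1.70 and 2.45 CPM in control GFP+DsRed+ cells, and 11.7 and 5.95 CPM in control GFP+DsRed- cells, the control groups differing by a log2 fold change of -1.45 ± 0.42 SE (adjusted p = 0.0454). cx28.8 (gjb7) had 4.35 and 4.75 CPM in csf1rDM GFP+DsRed- cells, 0.90 and 1.1 CPM in control GFP+DsRed+ cells, and 4.15 and 3.0 CPM in control GFP+DsRed- cells (-1.04 ± 0.26 SE, adjusted p = 0.0254). cx30.3 (gjb8), with 135 and 70.3 CPM in csf1rDM GFP+DsRed- cells, 25 and 20.4 CPM in control GFP+DsRed+ cells, and 46.1 and 58.7 CPM in control GFP+DsRed- cells, did not pass (-0.96 ± 0.33 SE, adjusted p = 0.0743). The beta gene cx28.6 (gjb9a) had an adjusted p of 0.676. All 6 tested beta genes had a negative log2 fold change, with a median of -1.07. Of all 20382 genes tested, 9844 had a positive one.

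Calls in this comparison differed in firmness. cx32.2, cx43, cx28.1, gja5b and cx43.4 passed without any one library, with adjusted p-values up to 0.0281. Without control GFP+DsRed+ replicate 3, or without control GFP+DsRed- replicate 2, cx34.4, cx30.9 and cx28.8 were among the genes lost. cx30.9 and cx28.8 were lost also without control GFP+DsRed+ replicate 1 or control GFP+DsRed- replicate 1. Of the 6 fits that left out a library, cx30.9 and cx28.8 passed in 2 each and cx34.4 in 4.

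Transcripts of other cell types moved with these genes. The summed level of 8 leukocyte markers was 684 and 492 CPM in csf1rDM GFP+DsRed- cells, 3513 and 4567 CPM in control GFP+DsRed+ cells, and 771 and 366 CPM in control GFP+DsRed- cells, and all 8 rose in control GFP+DsRed+ cells. The summed level of 10 keratinocyte markers was 26571 and 23124 CPM in csf1rDM GFP+DsRed- cells, 15624 and 10404 CPM in control GFP+DsRed+ cells, and 23945 and 30260 CPM in control GFP+DsRed- cells. Of the 10 keratinocyte markers 4 fell in control GFP+DsRed+ against control GFP+DsRed- cells. All 10 were lower at an unadjusted limma p under 0.05, with a median log2 fold change of -0.96. The 7 metaphocyte markers, of which cdh1 and epcam are also in the keratinocyte list, summed to 5253 and 5383 CPM, 1544 and 1352 CPM, and 4581 and 4147 CPM in the same order of groups. In control GFP+DsRed+ against control GFP+DsRed- cells 6 of the 7 fell and cd4-1, a T cell and macrophage coreceptor gene, rose, with 1.60 and 1.25 CPM in csf1rDM GFP+DsRed- cells, 63.1 and 87.4 CPM in control GFP+DsRed+ cells, and 2.15 and 0.50 CPM in control GFP+DsRed- cells. None of the markers was at 0 in any library for these 3 lists, and their part in the connexin differences was not tested. In such bulk libraries fewer cells of a type and less RNA per cell cannot be told apart.

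The second comparison asked what loss of the csf1 receptors changes in unmarked cells. In csf1rDM GFP+DsRed- cells against control GFP+DsRed- cells, 1 of the 21 tested genes rose and 2 fell. Of all genes tested, 6.51% passed in this comparison, 3.24% higher and 3.27% lower. Beyond a log2 fold change of 2, 1 of the 21 fell and 0 rose, against 1.01% and 0.55% of all genes (1.56% together). Without TMM scaling, 30.7% of the calls over all genes were higher in csf1rDM cells in place of 49.8%. A further 6 of the 21 (panx3, gja8a, cx36.7, cx30.3, cx32.2 and cx43) had an unadjusted limma p under 0.05 only, at adjusted p-values from 0.0658 to 0.176. The share of all genes under that unadjusted threshold was not computed for any comparison, so this count cannot be set against it. The groups did not overlap for 15 of the 21 genes, against 58.0% of all genes. The median log2 fold change was 0.12 over the 21 genes and -0.05 over all genes.

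cx43.4 was the gene that rose in csf1rDM GFP+DsRed- cells. Its mean was 251 ± 20.6 CPM in csf1rDM GFP+DsRed- cells and 118 ± 4.28 CPM in control GFP+DsRed- cells (SD, n = 2 each), which is 2.12-fold higher (log2 fold change 1.23 ± 0.16 SE, adjusted p = 0.0101). Without control GFP+DsRed- replicate 1 or 2, the log2 fold change was 1.16 and 1.31 and the adjusted p was 0.0699 and 0.0737.

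gja5b, whose protein is also called Cx41.8, was the gene that fell most. It had 0.80 and 1.0 CPM in csf1rDM GFP+DsRed- cells, 1.30 and 0.55 CPM in control GFP+DsRed+ cells, and 16.3 and 16.3 CPM in control GFP+DsRed- cells. The control GFP+DsRed- libraries were far above the other 4, and those of the other groups overlapped. Its reads numbered 4 and 4 in the csf1rDM libraries, 13 and 8 in those of control GFP+DsRed+ cells, and 185 and 170 in the control GFP+DsRed- libraries. It was 18.1-fold lower in csf1rDM GFP+DsRed- cells, at a log2 fold change of -3.06 ± 0.30 SE (adjusted p = 0.00381), and 17.6-fold lower in control GFP+DsRed+ cells, both against control GFP+DsRed- cells (-3.03 ± 0.30 SE, adjusted p = 0.000594). These comparisons share the control GFP+DsRed- libraries. gja8b, beside gja5b in the annotation, had 0 reads throughout, and the second copy of GJA5, gja5a, had at most 3 reads in a library.

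cx39.4 (gja4), the other connexin known from pigment stripes, had 0.60 and 0.25 CPM in csf1rDM GFP+DsRed- cells, 1.90 and 1.05 CPM in control GFP+DsRed+ cells, and 3.45 and 2.70 CPM in control GFP+DsRed- cells. These were 3 and 1 reads in the csf1rDM libraries, 19 and 15 in those of control GFP+DsRed+ cells, and 39 and 28 in the control GFP+DsRed- libraries. The csf1rDM and control GFP+DsRed- libraries did not overlap, and the difference passed narrowly (log2 fold change -1.42 ± 0.30 SE, adjusted p = 0.0411). The call held in 1 of the 6 fits that left out a library, the one without csf1rDM GFP+DsRed- replicate 2, and the highest adjusted p of the rest was 0.187, without control GFP+DsRed- replicate 1.

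In csf1rDM GFP+DsRed- against control GFP+DsRed- cells, xanthophore transcripts fell with gja5b and cx39.4. They come from the yellow pigment cells that depend on csf1ra in zebrafish. The 10 xanthophore markers summed to 21.0 and 16.2 CPM in csf1rDM GFP+DsRed- cells, 66.2 and 91.3 CPM in control GFP+DsRed+ cells, and 639 and 563 CPM in control GFP+DsRed- cells. Most of the sum in the csf1rDM libraries was scarb1 (12.2 and 10.9 CPM). Between the control groups 9 of the 10 fell in GFP+DsRed+ cells, as did gja5b, while cx39.4 did not pass (limma adjusted p = 0.203). In csf1rDM GFP+DsRed- against control GFP+DsRed+ cells 8 of the 10 fell. There gja5b and cx39.4 did not pass (limma adjusted p = 0.957 and 0.0731). Of the 10, 9 fell in csf1rDM GFP+DsRed- against control GFP+DsRed- cells, and 4 and 3 of them were at 0 in the csf1rDM libraries, slc2a15a, xdh and slc22a7a in both. Of the 8 tested melanophore markers 4 fell and 1 rose in the same comparison (1 of the 4, slc45a2, reached 1 CPM in control GFP+DsRed- libraries alone), and of the 8 iridophore markers 2 fell. The melanin synthesis gene tyr had 0.80 and 1.0 CPM in csf1rDM GFP+DsRed- cells, 0.70 and 1.15 CPM in control GFP+DsRed+ cells, and 16.6 and 16.1 CPM in control GFP+DsRed- cells, levels close to those of gja5b. The 10 melanophore markers summed to 63.6 and 85.5 CPM, 28 and 29.1 CPM, and 66 and 78.4 CPM in that order of groups, most of it kita in the csf1rDM libraries (52.8 and 72.8 CPM), and 2 and 4 of them were at 0 there. The 8 iridophore markers summed to 265 and 258 CPM, 270 and 316 CPM, and 293 and 261 CPM. foxo1a was the largest part of each sum (190 and 188 CPM in the csf1rDM libraries), so the sums say little of the other markers. The 2 that fell were ednrba (0.40 and 0.25, 2.40 and 0.95, and 36.1 and 33.1 CPM) and pnp4a (0.80 and 1.25, 2.80 and 3.85, and 8.44 and 8.55 CPM), in that order of groups. The 8 fibroblast markers summed to 4961 and 2138 CPM, 7960 and 7860 CPM, and 17819 and 15560 CPM in the same order of groups, and 5 of the 8 fell in csf1rDM GFP+DsRed- against control GFP+DsRed- cells. The part of these cell types in the connexin differences was not tested. Of 9 stripe pattern genes that are no connexins, all tested, kita, the Kit receptor of melanophores, rose in csf1rDM GFP+DsRed- against control GFP+DsRed- cells, while igsf11, an adhesion receptor, and pax7a and mitfa, pigment cell transcription factors, fell. kita and mitfa are also among the melanophore markers counted above, and pax7a is among the xanthophore markers.

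**Figure D4:**
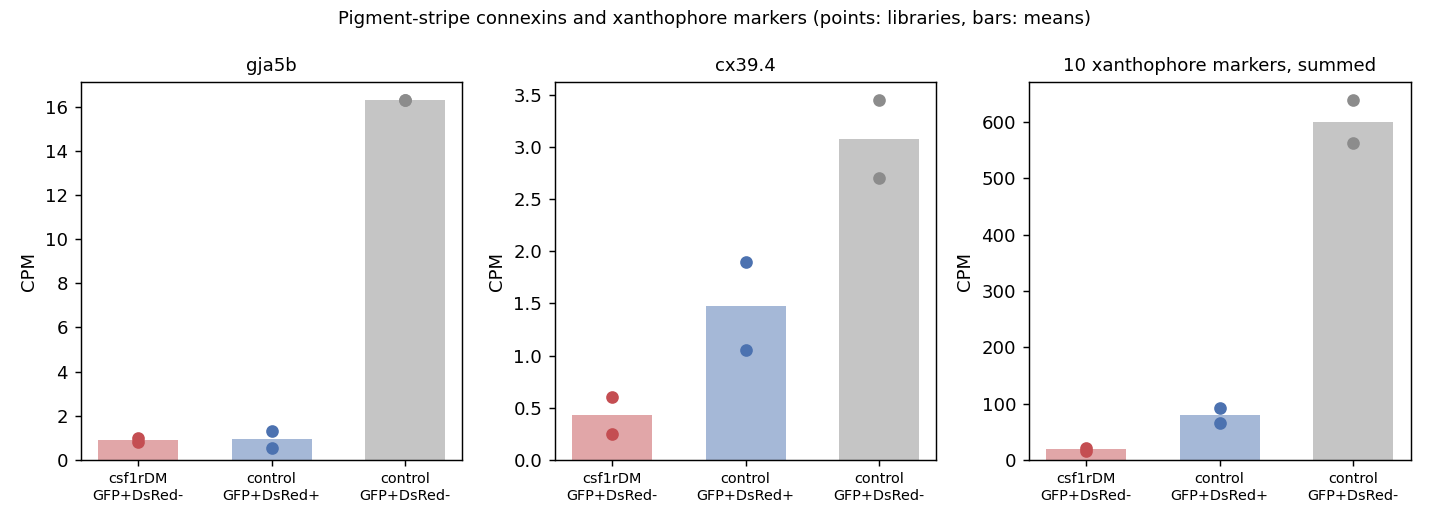
CPM of gja5b (left), of cx39.4 (middle) and of 10 xanthophore markers summed (right), with points for libraries and bars for group means. All 3 are highest in control GFP+DsRed- libraries (16.3 and 16.3 CPM for gja5b) and lowest or near lowest in csf1rDM GFP+DsRed- libraries (0.80 and 1.0 CPM).

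For the 3 genes that rose most in blood-derived cells, the unmarked groups of the 2 genotypes were not separated by the test. cx43 had a log2 fold change of -0.71 ± 0.29 SE in csf1rDM GFP+DsRed- against control GFP+DsRed- cells (adjusted p = 0.176), although its libraries did not overlap. cx32.2 had 3 reads over both csf1rDM libraries and 67 over both control GFP+DsRed- libraries, a rate 9.31-fold lower (exact interval 3.05 to 46.3, counting error only), with a limma adjusted p of 0.136. cx28.1 had 0 reads in csf1rDM GFP+DsRed- cells and 6 and 2 reads in control GFP+DsRed- cells (adjusted p = 0.39), a difference that was not detectable at this depth. Of the 8 leukocyte markers 0 passed in this comparison, and 1 had an unadjusted limma p under 0.05.

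The third comparison set the mutant unmarked cells against the blood-derived control cells, which differ both in origin and in genotype. In csf1rDM GFP+DsRed- cells against control GFP+DsRed+ cells, 5 of the 21 genes rose and 3 fell. Across all genes tested, 32.4% passed in this comparison, 14.1% higher and 18.3% lower. Beyond a log2 fold change of 2, 1 of the 21 rose and 3 fell, against 2.44% and 5.64% of all genes (8.09% together). The groups did not overlap for 13 of the 21 genes, against 67.1% of all genes. The median log2 fold change was 0.32 over the 21 genes and -0.07 over all genes.

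cx32.2, cx28.1 and cx43 were the genes that fell. The pooled read rate of cx32.2 was 1338-fold lower in csf1rDM GFP+DsRed- cells against control GFP+DsRed+ cells, with 3 and 10978 reads (exact interval 458 to 6487, counting error only, adjusted p = 7.97e-05). cx28.1 was at least 20.9-fold lower, taking the csf1rDM group at the floor of 3 reads in its shallower library (adjusted p = 0.00013). cx28.1 was tested only because the control GFP+DsRed+ libraries were high. cx43 was 10.8-fold lower, at 27.4 ± 9.44 CPM in csf1rDM GFP+DsRed- cells and 297 ± 71.2 CPM in control GFP+DsRed+ cells (SD, n = 2 each, adjusted p = 0.000286).

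The genes that rose included cx43.4 and the beta connexins cx30.3, cx34.4 and cx28.8. cx43.4 was 5.52-fold higher in csf1rDM GFP+DsRed- cells against control GFP+DsRed+ cells, at a log2 fold change of 2.37 ± 0.16 SE (adjusted p = 0.000116). cx30.3 was 4.51-fold higher, just under the threshold of 2 on the log2 scale (2.00 ± 0.33 SE, adjusted p = 0.00428), and its csf1rDM replicates, 135 and 70.3 CPM, differed by more than those of the other groups. cx34.4 was 2.46-fold higher (adjusted p = 0.0106) and cx28.8 was 4.55-fold higher (adjusted p = 0.00579). Without control GFP+DsRed+ replicate 3 cx34.4 had an adjusted p of 0.0648, and the other 7 calls passed without any one library. In this comparison 7 of the 10 keratinocyte markers rose, and their part in the rise of the beta connexins was not tested.

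**Figure D5:**
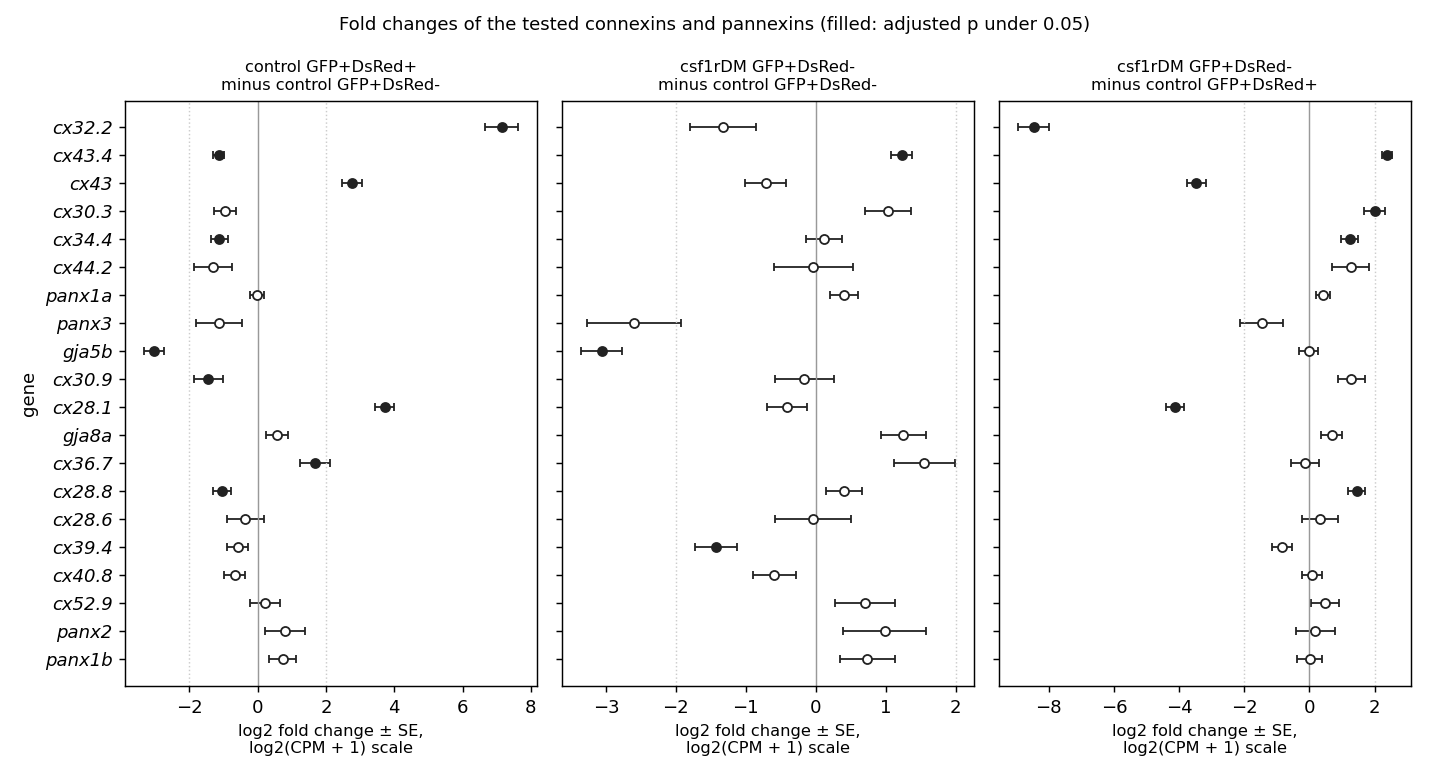
Log2 fold change with its standard error for 20 of the tested genes (rows, by mean CPM) in the 3 comparisons (panels), on the log2(CPM + 1) scale, with filled points for adjusted p under 0.05 and dotted lines at -2 and 2. In control GFP+DsRed+ minus control GFP+DsRed- 4 points are filled on the right and 5 on the left, in csf1rDM GFP+DsRed- minus control GFP+DsRed- 1 and 2, and in csf1rDM GFP+DsRed- minus control GFP+DsRed+ 4 and 3.

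Over the 3 comparisons 12 of the 21 tested genes passed at least once and 9 never did. The matching share of all genes tested was not computed over the 3 comparisons together, so this count cannot be set against it. Only cx43.4 passed in all 3, with csf1rDM GFP+DsRed- cells highest, control GFP+DsRed- cells between and control GFP+DsRed+ cells lowest. cx32.2, cx43 and cx28.1 were higher in control GFP+DsRed+ cells against control GFP+DsRed- cells and lower in csf1rDM GFP+DsRed- cells against control GFP+DsRed+ cells. The directions were the opposite for cx34.4 and cx28.8. gja5b alone was called lower in both groups set against control GFP+DsRed- cells. Since each pair of comparisons shares a group of libraries, the patterns are not independent of each other.

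The 4 pannexins passed in none of the comparisons (limma), and 1 of them, panx3, had an unadjusted p under 0.05 in 1 comparison. panx1a, a zebrafish copy of the ATP-releasing PANX1, had 26.6 and 20.9 CPM in csf1rDM GFP+DsRed- cells, 16.0 and 17.3 CPM in control GFP+DsRed+ cells, and 20.3 and 18.8 CPM in control GFP+DsRed- cells. Its log2 fold change was -0.01 ± 0.20 SE in control GFP+DsRed+ against control GFP+DsRed- cells and 0.40 ± 0.20 SE in csf1rDM GFP+DsRed- against control GFP+DsRed- cells. The other copy, panx1b, had 0.20 and 1.5 CPM, 0.40 and 1.05 CPM, and 0 and 0.10 CPM in the order csf1rDM GFP+DsRed-, control GFP+DsRed+ and control GFP+DsRed-, which was at most 15 reads a library. panx2 was uneven within groups, with 0.40 and 2.0 CPM in csf1rDM GFP+DsRed- cells, 0 and 2.2 CPM in control GFP+DsRed+ cells, and 0.10 and 0 CPM in control GFP+DsRed- cells.

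panx3, known from cartilage and skin in mammals, had 3.0 and 0 CPM in csf1rDM GFP+DsRed- cells, 6.80 and 2.60 CPM in control GFP+DsRed+ cells, and 13.4 and 11.2 CPM in control GFP+DsRed- cells. The csf1rDM and control GFP+DsRed- libraries did not overlap, but the csf1rDM replicates held 15 and 0 reads and the difference missed the threshold (log2 fold change -2.60 ± 0.67 SE, adjusted p = 0.0658). Without csf1rDM GFP+DsRed- replicate 2, which leaves only the library with 0 reads in that group, panx3 passed against both control groups. Without csf1rDM GFP+DsRed- replicate 3 it passed against neither, so the result depended on which library was kept.

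Partners of these channels were read from lists chosen with earlier results of these data known. Of 13 scaffold and regulator genes of gap junctions, all tested, 1 rose and 6 fell in control GFP+DsRed+ against control GFP+DsRed- cells. Over all genes tested, 14.6% rose and 10.8% fell in that comparison. The zonula occludens genes tjp1a, tjp1b, tjp2a, tjp2b and tjp3, whose proteins bind connexin tails at the junction's edge, fell, as did the caveolin gene cav1. tjp3 had 413 and 351 CPM in csf1rDM GFP+DsRed- cells, 99.1 and 108 CPM in control GFP+DsRed+ cells, and 285 and 267 CPM in control GFP+DsRed- cells. The gene that rose was dbn1, for the actin-binding drebrin that anchors Cx43, with 7.70 and 9.70 CPM in csf1rDM GFP+DsRed- cells, 98.01 and 100.03 CPM in control GFP+DsRed+ cells, and 14 and 7.0 CPM in control GFP+DsRed- cells, the control groups differing by a log2 fold change of 3.40 ± 0.29 SE. Of the 13, 7 rose and 1 fell in csf1rDM GFP+DsRed- against control GFP+DsRed+ cells, where 14.1% of all genes rose and 18.3% fell. The consortin genes, whose product sorts connexins to the membrane in mammals, differed from each other: between the control groups cnsta rose in GFP+DsRed+ cells (1.42 ± 0.21 SE on the log2 scale, adjusted p = 0.0034) and cnstb fell (-1.11 ± 0.33 SE, adjusted p = 0.0485).

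Of 20 tested genes of a purinergic list, 8 rose and 0 fell in control GFP+DsRed+ against control GFP+DsRed- cells by limma. A further 2 were lower at an unadjusted limma p under 0.05. The list, taken by name, holds p2rx and p2ry genes, adenosine receptors and enzymes that clear extracellular nucleotides, so not all its receptors are ATP receptors. The shares of all genes tested were 14.6% higher and 10.8% lower. For 4 of the 8 (p2ry12, p2ry11, p2rx3b and p2ry8) only the control GFP+DsRed+ libraries reached 1 CPM, so they were tested only because that group was high. p2rx7, the ATP-gated channel of macrophages, had 0.60 and 0.75 CPM in csf1rDM GFP+DsRed- cells, 92.7 and 121 CPM in control GFP+DsRed+ cells, and 3.10 and 2.05 CPM in control GFP+DsRed- cells. entpd1, which degrades extracellular ATP, had 23.5 and 27.6 CPM, 144 and 113 CPM, and 33.9 and 45.9 CPM in the same order. p2ry12, a microglial ADP receptor in mammals, had 0 and 0.25 CPM, 7.75 and 6.05 CPM, and 0 and 0.10 CPM. p2rx3b, p2ry8 and p2ry1 were among the others that rose. Of 10 tested genes of other large-pore channels, 4 rose and 0 fell in that comparison by limma, with 1 lower at an unadjusted p under 0.05. Among those that rose was calhm6, a calcium homeostasis modulator family gene, at 5.55 and 4.75 CPM in csf1rDM GFP+DsRed- cells, 40.0 and 44.8 CPM in control GFP+DsRed+ cells, and 9.09 and 3.75 CPM in control GFP+DsRed- cells. For the unmarked groups of the 2 genotypes, none of the scaffold, purinergic and other large-pore genes passed by limma (0 of 13, 0 of 20 and 0 of 10), and 4, 5 and 2 of them had an unadjusted p under 0.05. Of all genes tested, 6.51% passed between these groups.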

How the data were processed

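The authors aligned paired-end reads of Ovation SoLo libraries with STAR 2.5.4b to GRCz11 and counted genes with HTSeq 0.11.0 on the Ensembl annotation; they named edgeR, version not given in the sources used here. The deposited values are a scaled signal: gene counts of each library multiplied by one factor to a total of 20000000 and rounded up.

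CPM is a value over its library sum. Reads were estimated by undoing the rounding (at least 99.9% of values explained) and serve only for depth, a floor of 3 reads and counting intervals (95%). Rounding up leaves low values off whole multiples of one read's worth in most libraries, so the planned DESeq2 and edgeR alternatives, run and seen on those estimates, were withdrawn and are not reported.

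Groups were compared with limma 3.58.1 (R 4.3.3, trend) on log2(CPM + 1) after TMM scaling computed directly (factors 0.922 to 1.13), all 6 libraries in one fit, for 20382 genes with at least 1 CPM in 2 libraries. Calls used a Benjamini-Hochberg adjusted p under 0.05, beside a log2 fold change beyond 2. The fit was tested on simulated data. Nothing used here says that replicates came from separate fish, so p-values measure the spread between these samples, which may be technical.

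Named are the genes called in any comparison, the stripe connexins, cx43, cx43.4, all pannexins and the 6 highest by mean CPM; cx40.8, cx44.2, cx28.6, gja8a, gja5a, tbc1d32, tyr, cd4-1, slc45a2, p2ry11, the consortins and the genes under the filter were named after their values were seen. The values of 1 gene are not reported here, though counts and sums include it. The genes and lists were chosen with earlier results of these data known. RefSeq (GRCz12tu) served for symbols and gene order alone, and 36 of the 37 genes matched it.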

Additional observations from a re-analysis of the deposited data

How the results depend on the processing

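None of the 21 calls changed sign under any alternative, and 13 of them passed without each library in turn. The planned DESeq2 and edgeR fits on estimated reads were withdrawn after their calls had been seen. The reason was that rounding up leaves low values off whole multiples of one read's worth in most libraries. Those fits are not part of this comparison of settings. Without TMM factors the median of all genes moved by -0.18, -0.13 and 0.06 in the order control GFP+DsRed+ minus control GFP+DsRed-, csf1rDM GFP+DsRed- minus control GFP+DsRed- and csf1rDM GFP+DsRed- minus control GFP+DsRed+, and all 21 calls held.

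Leaving out one library, control GFP+DsRed+ against control GFP+DsRed- cells gave 3 to 4 genes higher, 2 to 7 lower, 4 to 5 beyond a log2 fold change of 2 and 2214 to 6032 of all genes. For csf1rDM GFP+DsRed- against control GFP+DsRed- cells these were 0 to 1, 1 to 3, 1 to 2 and 120 to 1728, and against control GFP+DsRed+ cells 4 to 6, 3 to 4, 4 to 5 and 3358 to 6687. The lowest counts over all genes came without control GFP+DsRed+ replicate 3, control GFP+DsRed- replicate 2 and control GFP+DsRed+ replicate 3 in that order of comparisons. Where a group was left with 1 library, that library was assumed to vary like the other groups.

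The replicate block gave 3 genes lower and 2245 of all genes in control GFP+DsRed+ against control GFP+DsRed- cells, 0 higher, 0 lower, 0 beyond 2 and 67 of all genes in csf1rDM GFP+DsRed- against control GFP+DsRed- cells (cx43.4, gja5b and cx39.4 no longer passed), and 3756 of all genes in csf1rDM GFP+DsRed- against control GFP+DsRed+ cells. Each pair of groups shares 1 replicate number. Deviations of same-numbered libraries correlated at -0.42, 0.03 and 0.02 for replicates 1, 2 and 3, so the numbers were not taken to pair samples. Deviations within a group of 2 libraries mirror each other, so the negative value means that differently numbered control libraries deviated alike. Whether the control groups share fish or handling was not tested, and the main fit took all libraries as independent. For csf1rDM GFP+DsRed- against control GFP+DsRed- cells, 1 gene was lower both with no filter (697 of all genes) and with only the 4 libraries of the groups compared (603 of all genes), since cx39.4 was lost, and a pseudocount of 0.25 put 2 genes beyond 2. With no filter cx36.7, cx30.9 and cx28.8 no longer passed between the control groups.

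Signs under the alternatives were followed only for the genes called in any comparison and for the pannexins. Among these genes, signs that turned belonged to 8 uncalled log2 fold changes. The remaining tested genes, among them cx44.2 and cx28.6, were not followed, so the count does not cover them. For control GFP+DsRed+ against control GFP+DsRed- cells panx1a was 0.0077 with only the groups compared, 0.091 with the replicate block and -0.020 to 0.018 over the fits that left out one library, and panx2 was -0.061 to 1.68 over those fits. For csf1rDM GFP+DsRed- against control GFP+DsRed- cells cx30.9 was -0.67 to 0.35 and cx34.4 -0.10 to 0.36 over those fits, and cx34.4 was -0.033 without TMM factors. For csf1rDM GFP+DsRed- against control GFP+DsRed+ cells panx1b was -0.10 at a pseudocount of 0.25 and -0.53 to 0.54 over those fits, panx2 was -0.68 to 1.06, cx36.7 was 0.26 with the replicate block and -0.34 to 0.079, and gja5b was 0.0071 without TMM factors, 0.068 with the replicate block and -0.34 to 0.28. The cause of these changes was not tested. Depth limits the csf1rDM values of cx32.2, gja5b, cx28.1, cx39.4, cx40.8, panx1b and panx2, with at most 8 reads in either csf1rDM library.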
